A study of Rattus norvegicus with 12 samples.

Results

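Retinoid handling in the rat uterus was followed here through 8 genes that transport, oxidise, bind or respond to retinoids, together with Fabp5, a fatty acid binding protein that also carries retinoic acid. The genes are Rbp4, Stra6, Rdh10, Aldh1a1, Aldh1a2, Crabp1, Crabp2, Rarb and Fabp5, matched by gene symbol, and all 9 were found among the 34034 genes of the count table. They were chosen by pathway and by their raw counts in all 12 libraries of the 4 groups, so their levels, fold changes and standard errors are descriptions of these libraries and carry no test of their own.

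Retinol travels in blood on retinol binding protein and enters cells through the receptor STRA6. Inside the cell it is oxidised first to retinal by retinol dehydrogenases and then to retinoic acid by retinal dehydrogenases, and it can be stored as retinyl ester or the acid degraded by CYP26 enzymes. Retinoic acid acts through nuclear receptors, the RARs: CRABP2 delivers it to them and FABP5 to PPAR beta/delta, and in the uterus the pathway is known for its part in stromal decidualization.

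The tissue came from 8-week-old female rats and was sequenced with QuantSeq, which reads the 3' end of polyadenylated transcripts, from 1000 ng of total RNA per library with single-end reads of 75 bp. The 4 groups held 3 libraries each. Normal tissue had no injury. The other groups shared a mechanical injury (AS) made under tribromoethanol by scraping the uterine lining with a bent needle. EEP tissue then received a bioprinted endometrial patch 2 days after the injury, whose cells the labels do not name. CP tissue received a control patch of Endo-UdECM that was printed without cells. The opposite horn of a rat given EEP was an internal control or took the control patch, so libraries of different groups could come from 1 animal, and the labels do not link libraries to animals. The p-values therefore measure only the spread between these samples, which may be technical in part. Strain, time of harvest and the stage of the estrous cycle were not given in the sources used here. The samples are titled Endometrium while the study design speaks of uterine tissues, and markers of both layers were present: all 12 stromal, all 11 luminal epithelial and all 10 smooth-muscle markers had counts in every group.

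Libraries held 4866790 to 8938227 counts, of which 37 mitochondrial genes took 18.9% to 82.5%, so that nuclear genes shared 1202525 to 5832552. Levels are given as CPM, counts scaled to the TMM-adjusted library size, on which 3 counts make 0.177 to 0.867 CPM depending on the library. The shallowest in nuclear counts was EEP 3 and the deepest EEP 1. Because reads come from the 3' end and levels are not scaled by length, levels are compared between libraries within a gene and never between genes. In bulk tissue, fewer cells of a type and less RNA per cell cannot be told apart.

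What the data show for these genes can be put briefly. Fabp5 was high in normal 1 and normal 3 and low in the other 10 libraries, normal 2 among them. Crabp1, a cytosolic carrier of retinoic acid, was lower in every library that had received a patch than in every library that had not. Its mean was 2.85 CPM in EEP and 3.59 CPM in CP, against 10.6 CPM in AS and 12.7 CPM in normal tissue. How many of all genes separate patched from unpatched libraries in this way was not counted. In the single comparisons of a patched with an unpatched group, 7.05% to 14.8% of genes were lower without overlap. Aldh1a2, the stromal retinoic acid synthase, was lower in each EEP library than in any AS or normal library. Crabp2 stood far above the rest in a single library, AS 1, and was higher in each EEP library than in any normal one. No member passed an adjusted p of 0.05 over all genes in any of the 6 comparisons with edgeR's quasi-likelihood test on the filtered genes and all 12 libraries, while Fabp5, Crabp2 and Stra6 passed in some comparisons under other settings.

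The promoters of 7 members were available, from RefSeq on the GRCr8 assembly, covering 250 bases before to 50 bases after each gene's start. Fabp5 and Rdh10 had no entry. A direct repeat with 5 spacer bases (DR5), the arrangement of half-sites bound by retinoic acid receptors, was searched on both strands as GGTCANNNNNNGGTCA, GGTCANNNNNNGTTCA, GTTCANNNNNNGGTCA and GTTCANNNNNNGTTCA. It occurred in 1 of the 7 promoters, that of Rarb, at chr15:11336417-11336432 on the plus strand, 26 to 41 bases after the start. Of the 33469 rat promoters of this length, 0.601% held such a repeat. The stretch is shown because Rarb is the textbook gene with a retinoic acid response element, with the repeat in capitals.
Rarb: ggaaggGTTCACCGAAAGTTCActcgca
Direct repeats with 1 spacer base (GGTCANNGGTCA and the forms with GTTCA at either end) or 2 (GGTCANNNGGTCA and likewise), and the palindrome GGTCANNNTGACC, had no match on either strand in the 7 promoters, against 0.379%, 0.326% and 0.0269% of all promoters. These letters not being in the window says nothing about binding by the factor.

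The motif TATAAA, read on the sense strand, occurred in the promoters of Rbp4 and Crabp2 and in 8.8% of all promoters. The 100 bases before the start of Crabp1 and Crabp2 are printed because these are a pair of related carriers whose levels ran differently across the groups, with TATAAA in capitals. The Crabp1 stretch, chr8:64047331-64047430 on the plus strand, is 76% G or C and has 9 CG pairs. The Crabp2 stretch, chr2:175714762-175714861 on the plus strand, is 64% G or C and has 6 CG pairs. Both are promoter sequences of the reference and were not read from these libraries.
Crabp1: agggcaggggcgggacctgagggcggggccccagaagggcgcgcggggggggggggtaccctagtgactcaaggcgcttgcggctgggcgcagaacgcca
Crabp2: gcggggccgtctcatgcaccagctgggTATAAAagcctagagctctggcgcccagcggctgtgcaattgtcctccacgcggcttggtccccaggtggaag

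**Figure D1:**
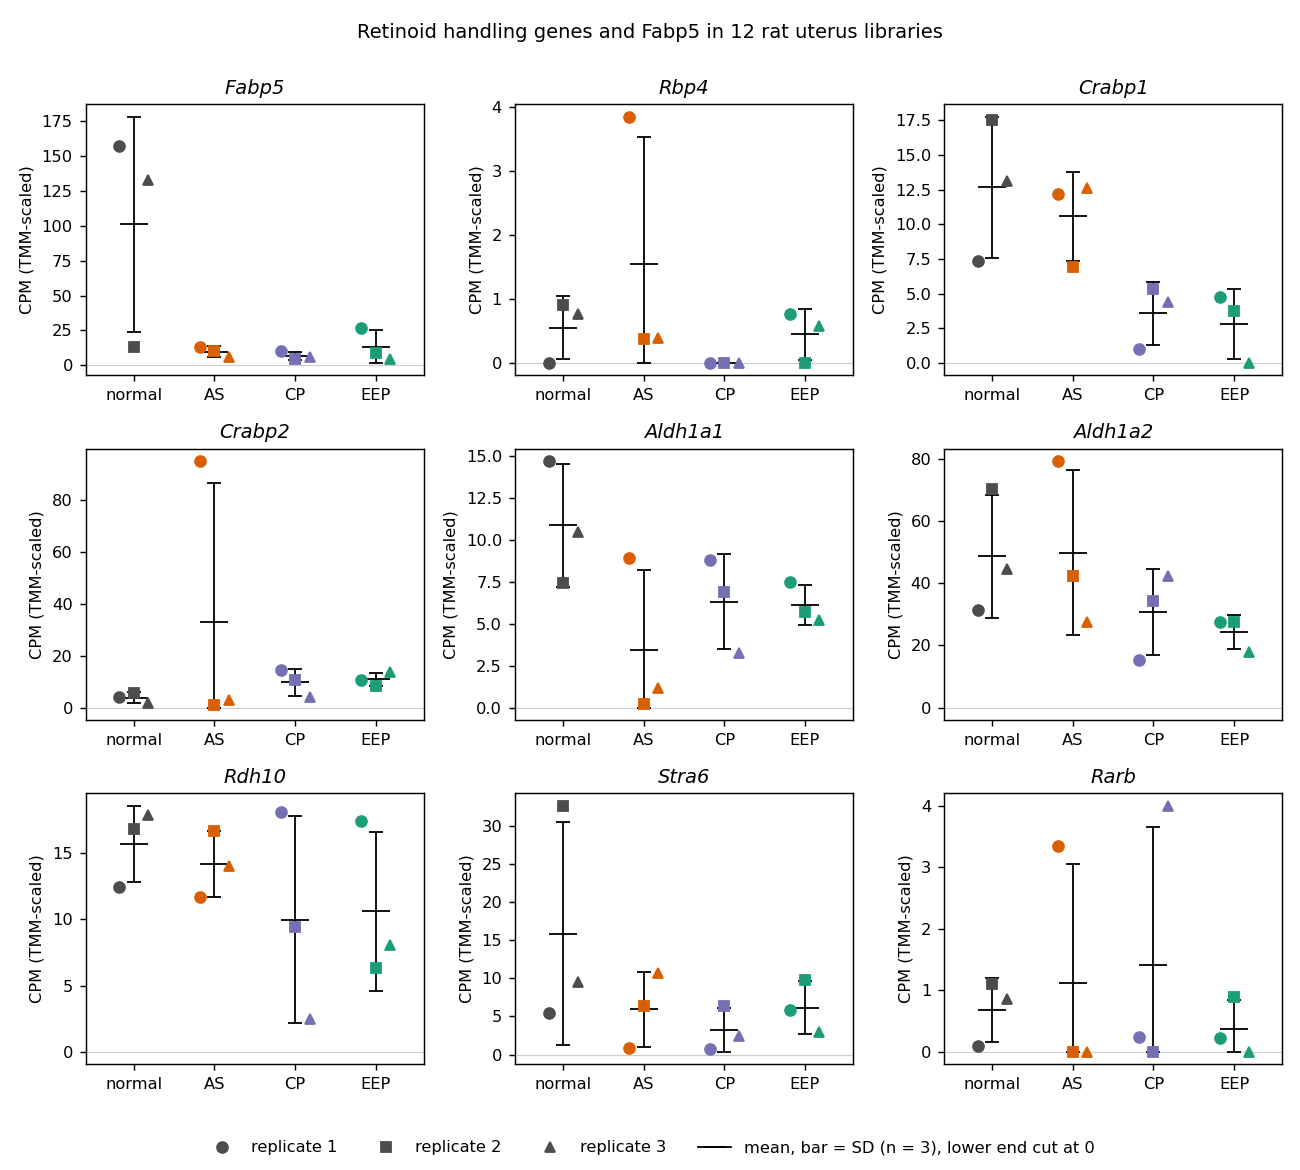
Level of each member in each library, in TMM-scaled CPM on a linear axis of its own per gene, for the groups normal, AS, CP and EEP. Symbols mark replicates 1, 2 and 3, the line the group mean and the bar the SD (n = 3), cut at 0. Fabp5 is above 130 CPM in normal 1 and normal 3 and at or below 27.1 CPM elsewhere, and Crabp2 reaches 94.9 CPM in AS 1 and at most 14.6 CPM elsewhere.

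Delivery of retinol came first. Rbp4 (chr1:235893917-235901315, minus strand, mRatBN7.2), the plasma carrier of retinol, had 0, 9 and 8 counts in normal 1, 2 and 3, then 23, 2 and 2 in AS 1, 2 and 3. It had 0 counts in all CP libraries and 13, 0 and 2 in EEP 1, 2 and 3. With 59 counts in all it did not pass the low-count filter and was not tested. Against a floor of 3 counts over the CP group, CP was at least 8.42-fold lower than AS and at least 2.88-fold lower than normal tissue, and EEP was at least 2.81-fold higher than CP. Of the 27 counts in AS, 23 lay in AS 1, so the first of these bounds rests mostly on that library. Likewise 13 of the 15 counts in EEP lay in EEP 1. With EEP 2 and normal 1 also at 0, the libraries of EEP and of normal tissue overlapped those of CP.

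Stra6 (chr8:58548899-58568861, plus strand), the membrane receptor that takes up retinol, was at 5.48, 32.6 and 9.50 CPM in normal 1, 2 and 3, and at 0.84, 6.33 and 10.7 CPM in AS 1, 2 and 3. In CP 1, 2 and 3 it was at 0.75, 6.38 and 2.47 CPM, and in EEP 1, 2 and 3 at 5.85, 9.76 and 2.89 CPM. The highest library was normal 2, at 4.36 times the mean of the other normal libraries, and every group overlapped every other. In order of the means, normal stood at 15.9 ± 14.7 CPM (SD, n = 3), EEP at 6.17 ± 3.44, AS at 5.95 ± 4.93 and CP at 3.20 ± 2.88. The log2 fold change against normal tissue was -2.28 (SE 0.904) in CP, -1.42 (SE 0.872) in AS and -1.35 in EEP. Without normal 2 these values were -1.21 in CP, -0.34 in AS and -0.27 in EEP.

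Among the oxidising enzymes, Rdh10 (chr5:3186671-3215572, minus strand) makes retinal from retinol. It was at 12.4, 16.8 and 17.8 CPM in normal 1, 2 and 3 and at 11.7, 16.7 and 14.0 CPM in AS 1, 2 and 3. CP 1, 2 and 3 had 18.1, 9.40 and 2.47 CPM, and EEP 1, 2 and 3 had 17.4, 6.30 and 8.09 CPM. Both unpatched groups kept within a narrow range, while in each patched group replicate 1 was as high as normal tissue and the other libraries were lower. Group means were 15.7 ± 2.87 CPM in normal, 14.2 ± 2.49 in AS, 10.6 ± 5.98 in EEP and 9.99 ± 7.83 in CP, and the fold changes ran from -0.66 (CP against normal) to 0.11 (EEP against CP) on the log2 scale. Without CP 1 the value of CP was -1.37 against normal and -1.21 against AS, and without EEP 1 that of EEP was -1.14 and -0.99. All groups overlapped.

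Aldh1a1 (chr1:218000470-218152962, plus strand), a retinal dehydrogenase that completes the synthesis of retinoic acid, was at 14.7, 7.41 and 10.5 CPM in normal 1, 2 and 3. The AS libraries were split, with 8.87 CPM in AS 1 and 0.19 and 1.19 CPM in AS 2 and AS 3. CP 1, 2 and 3 were at 8.80, 6.88 and 3.23 CPM, and EEP 1, 2 and 3 at 7.45, 5.70 and 5.20 CPM. AS 2 and AS 3 were the lowest libraries of the 12. The order of means was normal (10.8 ± 3.64 CPM), CP (6.31 ± 2.83), EEP (6.12 ± 1.18) and AS (3.42 ± 4.75), with neighbours overlapping throughout. AS against normal had a log2 fold change of -1.65 (SE 0.848), and -3.97 without AS 1. EEP and CP against AS had values of 0.83 and 0.86, and of 3.19 and 3.20 without AS 1.

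Aldh1a2 (chr8:71877850-71957107, plus strand), the main retinal dehydrogenase of the endometrial stroma, was at 31.4, 70.3 and 44.4 CPM in normal 1, 2 and 3 and at 79.2, 42.4 and 27.7 CPM in AS 1, 2 and 3. It was at 15.3, 34.3 and 42.4 CPM in CP 1, 2 and 3 and at 27.4, 27.6 and 17.9 CPM in EEP 1, 2 and 3. The EEP libraries lay below all normal and all AS libraries, the gap to AS being small, from 27.62 CPM in EEP 2 to 27.67 CPM in AS 3. Means were 49.8 ± 26.5 CPM in AS, 48.7 ± 19.8 in normal, 30.7 ± 13.9 in CP and 24.3 ± 5.55 in EEP. The log2 fold change of EEP was -1.03 (SE 0.463) against AS and -1.0 (SE 0.462) against normal tissue, that of CP -0.70 and -0.66, and AS against normal was at 0.03 (SE 0.456). Without AS 1 the values against AS were -0.47 for EEP and -0.14 for CP, and AS against normal was at -0.50.

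Stromal markers moved with this gene in part. Their summed level was 6835 to 9177 CPM in normal, 5644 to 7666 in AS, 3787 to 5542 in CP and 2868 to 7667 CPM in EEP, the highest EEP value being that of EEP 1. Smooth-muscle markers summed to 5197 to 6355 CPM in normal, 6016 to 11481 in AS, 2829 to 4123 in CP and 1817 to 3830 CPM in EEP, so that every patched library lay below every unpatched one. In EEP 1 and AS 1 the stromal sums were 7667 and 7666 CPM, with Aldh1a2 at 27.4 and 79.2 CPM. In AS 3 the stromal sum was 5644 CPM, with Aldh1a2 at 27.7 CPM. The part of either layer's share in the levels of Aldh1a2 was not tested.

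The carriers of retinoic acid differed in their patterns. Crabp1 (chr8:55138363-55159360, plus strand), which holds retinoic acid in the cytosol, was at 7.38, 17.5 and 13.1 CPM in normal 1, 2 and 3 and at 12.2, 6.91 and 12.7 CPM in AS 1, 2 and 3. In CP 1, 2 and 3 it was at 1.01, 5.37 and 4.38 CPM, and in EEP 1, 2 and 3 at 4.79, 3.75 and 0 CPM. The lowest unpatched library, AS 2, stood above the highest patched library, CP 2. EEP 3, at 0 counts, was also the library with the fewest nuclear counts.

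The log2 fold changes of Crabp1 were -1.81 (SE 0.824) for EEP and -1.54 (SE 0.826) for CP against AS, and -2.07 (SE 0.825) and -1.80 (SE 0.826) against normal tissue. These comparisons share their AS or normal libraries. EEP and CP overlapped, at -0.27, as did AS and normal tissue, at -0.26 (SE 0.789). Muscle markers were lower in every patched library and stromal markers in all but EEP 1, as given above, and their part in the Crabp1 level was not tested. In addition, the mitochondrial share was higher in AS and CP libraries than in normal ones. With that share as a covariate the values were -3.65 for EEP against AS, -1.98 for EEP against CP, -0.57 for CP against normal and 1.11 for AS against normal. With the share in the fit, the distance between EEP and AS was thus larger and that between CP and normal tissue smaller.

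Crabp2 (chr2:173417004-173421352, plus strand), the carrier that hands retinoic acid to its receptor, is also known as an estrogen-induced gene of the rat uterus. It was at 4.22, 5.61 and 1.63 CPM in normal 1, 2 and 3, and at 94.9, 1.15 and 2.96 CPM in AS 1, 2 and 3. It was at 14.6, 10.6 and 4.19 CPM in CP 1, 2 and 3 and at 10.5, 8.41 and 13.6 CPM in EEP 1, 2 and 3. AS 1 was 6.51 times the next library, CP 1, while AS 2 was the lowest of the 12. All EEP libraries stood above all normal libraries.

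Group means of Crabp2 were 33.0 ± 53.6 CPM in AS, 10.8 ± 2.60 in EEP, 9.78 ± 5.24 in CP and 3.82 ± 2.02 in normal tissue. The log2 fold change was 1.50 (SE 1.04) for EEP and 1.35 for CP against normal tissue. For AS against normal it was 3.11 (SE 1.09) with AS 1 and -0.91 without it. EEP and CP against AS had values of -1.62 and -1.76 with AS 1 and of 2.43 and 2.27 without it, so the sign of each comparison with AS rested on that library. AS 1 also had the highest summed level of luminal epithelial markers, 2005 CPM against 122 to 178 CPM in AS 2 and AS 3, and of estrogen-induced uterine genes, 3697 CPM against 1173 to 1226 CPM. The same library was the highest of the 12 in macrophage markers (2565 CPM, against 271 to 581 in AS 2 and AS 3), erythrocyte markers (2811 CPM, against 201 to 407) and smooth-muscle markers (11481 CPM, against 6016 to 6444). EEP 1 followed at 1158 CPM of luminal markers, with Crabp2 at 10.5 CPM. The part of any of these contents in the Crabp2 level was not tested.

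Fabp5 (chr2:91765056-91768716, minus strand), the epidermal type fatty acid binding protein, was at 157, 13.01 and 133 CPM in normal 1, 2 and 3. It was at 13.4, 10.2 and 6.13 CPM in AS 1, 2 and 3. CP 1, 2 and 3 had 10.1, 4.36 and 6.28 CPM, and EEP 1, 2 and 3 had 27.1, 8.56 and 4.91 CPM. Normal 1 and normal 3 had a mean of 145 CPM, which was 11.1 times normal 2, and they held 73.6% of the summed level over the 12 libraries. Normal 2, at 13.01 CPM, lay below AS 1 and EEP 1 but above all CP libraries.

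Means of Fabp5 were 101 ± 77.1 CPM in normal, 13.5 ± 11.9 in EEP, 9.90 ± 3.64 in AS and 6.90 ± 2.90 in CP, from 3006, 532, 164 and 99 counts. The log2 fold change against normal tissue was -3.88 (SE 0.788) in CP, -3.35 (SE 0.763) in AS and -2.87 (SE 0.741) in EEP, with the 3 comparisons sharing the normal libraries. Among the injured groups the values were 0.48 (SE 0.712) for EEP against AS, -0.54 (SE 0.734) for CP against AS and 1.02 (SE 0.728) for EEP against CP, with overlapping libraries. Without EEP 1 the values of EEP were -0.54 against AS and 0.00 against CP, and in a fit with the mitochondrial share added they were -0.51 and -0.04.

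Whether Fabp5 passed depended on the settings. Under edgeR's quasi-likelihood test its adjusted p over all genes was 0.125 in CP, 0.352 in AS and 0.443 in EEP against normal tissue. DESeq2 on the same counts gave 1.67e-04, 0.00557 and 0.025, and edgeR without the low-count filter 8.17e-12, 4.19e-09 and 9.67e-07. With CP and normal tissue fitted alone the CP value was 0.0181. Without normal 2 the edgeR values were 0.0126 in CP, 0.0264 in AS and 0.0932 in EEP. Without normal 1 they were 0.481, 1 and 0.998, and without normal 3 they were 0.303, 1 and 0.77. Leaving out EEP 1 gave 0.0262 for EEP, and in a fit that held the mitochondrial share the values were 0.644, 0.647 and 0.167. None of these is an independent test, since the gene was picked with its counts known.

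Markers of stratified epithelium, in which Fabp5 is known to be abundant, were read beside it. Of the 12 listed, 10 were in the table, with 5 detected in normal, 5 in AS, 9 in CP and 9 in EEP. They summed to 1.50 to 4.70 CPM in normal tissue, 0.767 to 17.3 in AS, 8.04 to 40.3 in CP and 62.4 to 114 CPM in EEP. They were highest in EEP, and normal 1 and normal 3, where Fabp5 was highest, had 2.00 and 4.70 CPM of them. Krt13, Krt4, Krt6a, Dsg3 and Tp63 were at 0 in all normal libraries. Luminal epithelial markers were 435, 181 and 486 CPM in normal 1, 2 and 3, the lowest of these being normal 2, as for Fabp5. AS 1 had 2005 CPM of them, with Fabp5 at 13.4 CPM. A predicted gene described as fatty acid-binding protein 5-like, LOC120101547, had 1 count in all libraries together. Adipocyte markers summed to 33.2 to 68.3 CPM in normal and 39.3 to 129 CPM in AS. The part of any of these cell contents in the Fabp5 level was not tested.

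**Figure D2:**
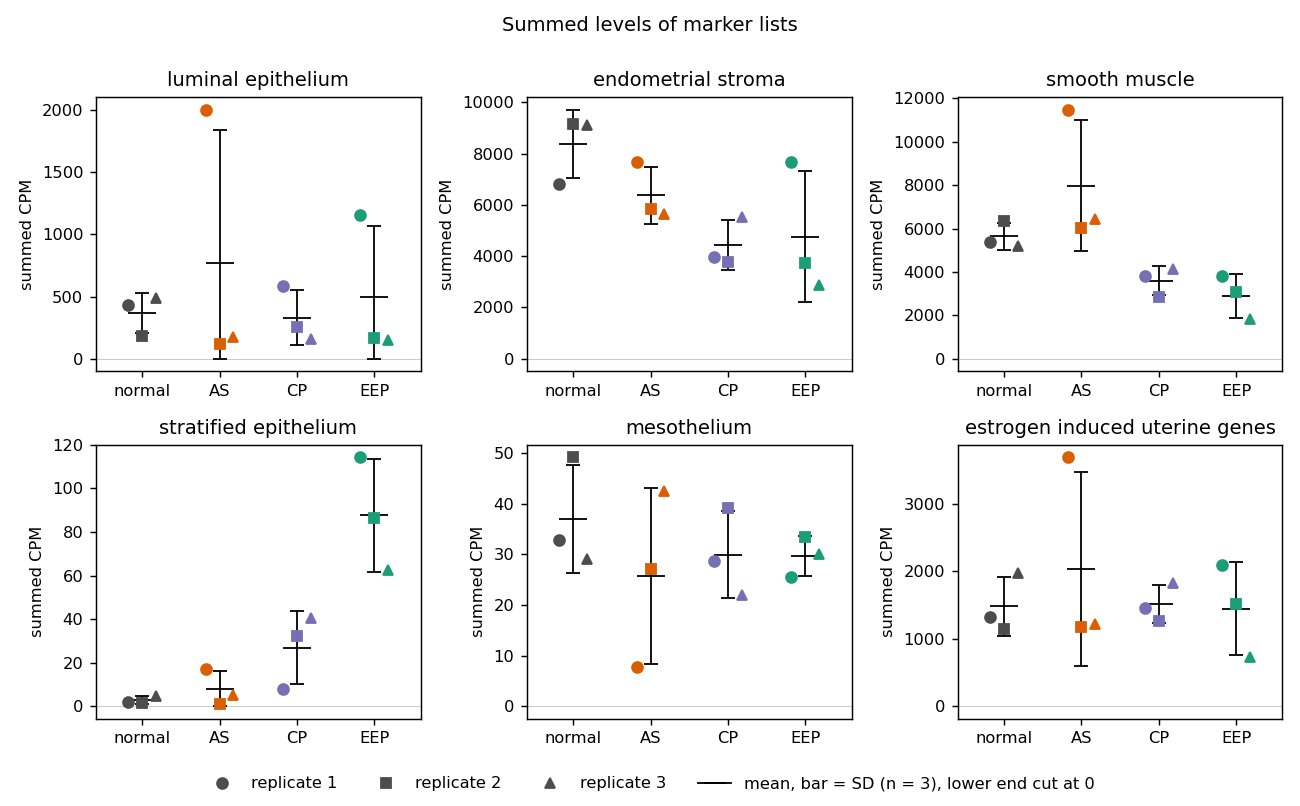
Summed level of cell type markers in each library, in TMM-scaled CPM on a linear axis, by group. Symbols mark replicates, lines the group mean and bars the SD (n = 3), cut at 0. Luminal epithelial markers peak in AS 1 at 2005 CPM, and stratified epithelial markers are highest in the EEP libraries, at 62.4 to 114 CPM.

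Rarb (chr15:8700533-9051288, plus strand), the retinoic acid receptor whose own transcription responds to retinoic acid, was near the detection limit. It had 1, 11 and 9 counts in normal 1, 2 and 3. AS 1, 2 and 3 held 20, 0 and 0. The counts were 1, 0 and 21 in CP 1, 2 and 3, with 4, 6 and 0 for EEP 1, 2 and 3. Most AS counts came from AS 1 and most CP counts from CP 3, and all groups overlapped. At this depth no difference between groups was detectable. Without CP 3 the log2 fold change of CP went from 1.02 to -2.45 against normal and from 0.33 to -3.14 against AS.

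**Figure D3:**
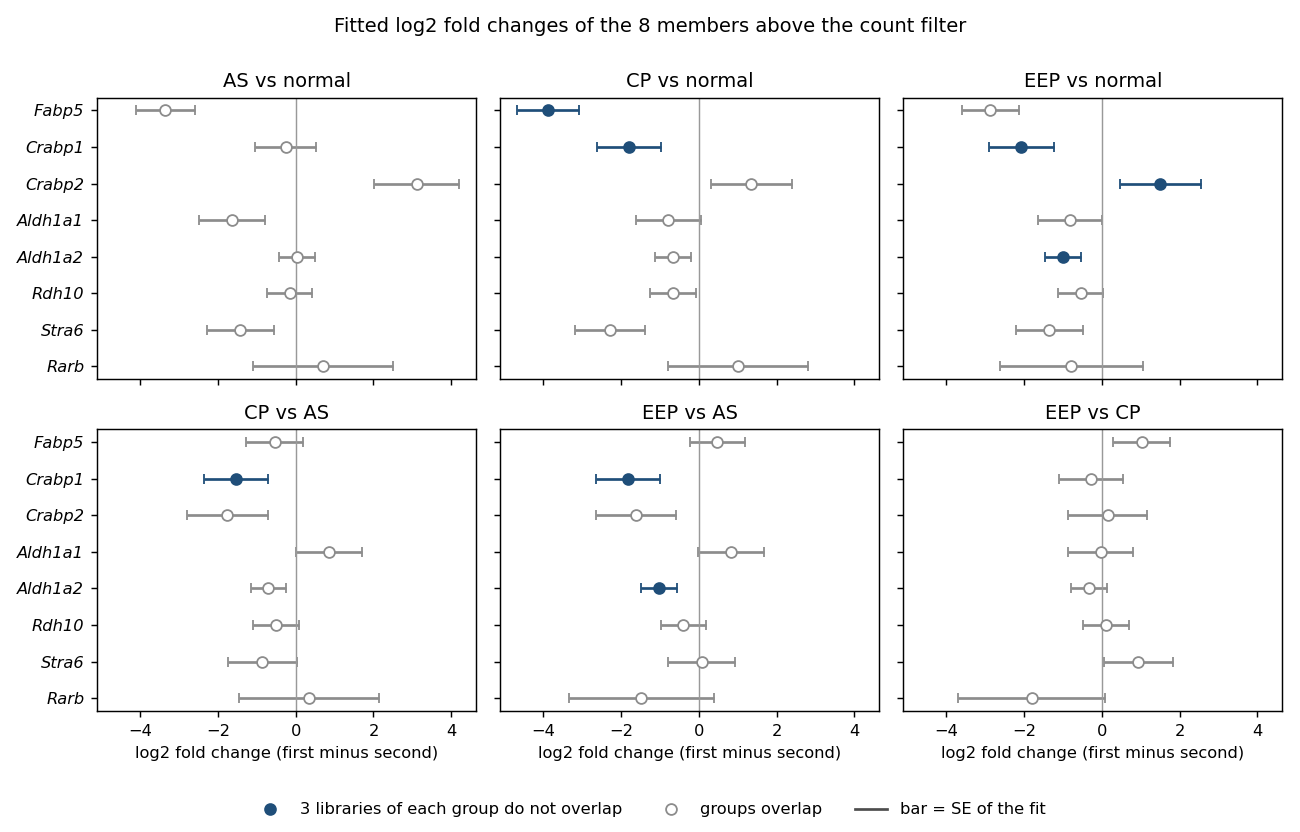
Log2 fold change of the 8 tested members in each of the 6 comparisons, with bars of 1 standard error of the edgeR fit. Fabp5 lies between -3.88 and -2.87 in the comparisons with normal tissue, Crabp1 between -2.07 and -1.54 in the 4 comparisons of patched with unpatched tissue, and the bars of Rarb are the widest.

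Over all comparisons, 8 of the 9 members entered the fit and 0 were called by edgeR's quasi-likelihood test at an adjusted p of 0.05 with the low-count filter. Without that filter edgeR called Fabp5 in AS, EEP and CP against normal tissue. It also called Crabp2 in AS against normal (adjusted p = 4.73e-05) and Stra6 in CP against normal (adjusted p = 0.0476). That setting called 154, 232 and 445 genes over the whole table in AS, EEP and CP against normal. With the filter, 13909 genes were tested. Of the 13909 genes tested, the share called was 0.00719% in AS against normal, 0.0144% in EEP against AS, 0.00719% in CP against AS, 0% in EEP against CP, 0.00719% in EEP against normal and 0% in CP against normal, which is 1, 2, 1, 0, 1 and 0 genes. Among the members, 2, 2, 0, 0, 3 and 3 had an unadjusted p under 0.05 in the same order, against 772, 1410, 1667, 416, 1051 and 1760 of all genes. DESeq2 called 1 member, Fabp5, in AS, EEP and CP against normal tissue, where it called 32, 65 and 270 of all genes. It called 0 members in the other comparisons, with no adjusted p for Crabp1, Aldh1a1, Stra6 and Rarb in EEP against AS. Nothing is read from these counts, because the choice of members used them.

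Over the 8 tested members, counted by libraries that do not overlap, 0 were higher and 0 lower in AS than in normal tissue. Of all genes, 6.51% and 8.26% were, 14.8% in all. In EEP against AS 0 were higher (6.18% of all genes) and 2 lower, Crabp1 and Aldh1a2 (7.05%). In CP against AS 0 were higher (8.73%) and 1 lower, Crabp1 (9.22%). Rbp4, which was not tested and is left out of these counts, was also lower there, at 0 counts in CP against 23, 2 and 2 in AS. EEP and CP did not separate for any member, against 3.87% of all genes higher and 3.07% lower in EEP. In EEP against normal 1 was higher, Crabp2 (6.14%), and 2 lower, Crabp1 and Aldh1a2 (8.44%). In CP against normal 0 were higher (13.1%) and 2 lower, Fabp5 and Crabp1 (14.8%).

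The median log2 fold change over the 8 members was -0.91 in EEP against normal, with 7 below 0, and -0.72 in CP against normal, with 6 below 0. It was -0.72 and -0.62 in EEP and CP against AS, -0.21 in AS against normal and 0.04 in EEP against CP. Medians over all genes tested lay between -0.041 and 0.038, and the share of all genes below 0 was not counted. For the 37 tested genes in the wider pathway list below, medians were 0.06 in EEP and -0.02 in CP against normal. Against AS they were -0.07 in EEP and -0.58 in CP. The medians of the members are not read as a shift of the pathway, because the members were chosen with these counts known.

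The rest of the pathway was read from a list of 70 genes, of which 67 were in the table and 37 could be tested. In every comparison 0 were called with edgeR after the low-count filter, while 5, 3, 6, 3, 3 and 9 had an unadjusted p under 0.05 in AS against normal, EEP against AS, CP against AS, EEP against CP, EEP against normal and CP against normal. Of all 13909 genes tested, 772, 1410, 1667, 416, 1051 and 1760 did in the same order. DESeq2 called Rdh13 in CP against AS, Rdh13 and Ppard in CP against normal, and 0 elsewhere. Over the whole table it called 119 genes in CP against AS and 270 in CP against normal. In EEP against AS it gave no adjusted p for 20 of the members and listed genes together. Without the filter edgeR called 2, 1, 2, 1, 2 and 4 listed genes in the order above, against 154, 143, 230, 5, 232 and 445 of all genes. With the 2 groups fitted alone it called 3 in CP against normal, against 585 of all genes. Without EEP 1 it called 1 in EEP against normal, against 200 of all genes. Groups did not overlap for 8.11%, 10.8%, 18.9%, 16.2%, 18.9% and 32.4% of the 37 in the same order, where 14.8%, 13.2%, 17.9%, 6.94%, 14.6% and 27.9% of all genes did.

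Genes of retinoid degradation and storage had no pattern shared by all of those tested. Cyp26a1, the enzyme that clears retinoic acid and a gene it induces, was at 37.1, 0 and 28.4 CPM in normal 1, 2 and 3, at 0.99 CPM in AS 3 and 8.04 CPM in EEP 1, and at 0 in the other 7 injured libraries. Normal 1 and normal 3 held 87.9% of its summed level, as they held most of that of Fabp5. CP was at least 110-fold lower than normal tissue against a floor of 3 counts over the CP group, though the groups overlapped through normal 2. Its adjusted p was 0.773 in AS and 0.216 in CP against normal tissue (edgeR). Cyp26b1, the other tested enzyme of the family, ran differently, at 5.38, 14.8 and 7.195 CPM in normal 1, 2 and 3, with means of 6.01 ± 4.04 CPM in AS, 14.3 ± 7.21 in CP and 9.56 ± 6.60 in EEP and overlap throughout.

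Lrat, which esterifies retinol for storage, was at 33.7, 2.20 and 84.2 CPM in normal 1, 2 and 3 and at 0.25 to 14.6 CPM in the 9 injured libraries. Normal 1 and normal 3 held 67% of its summed level. Its log2 fold change against normal tissue was -2.40 (SE 1.13) in AS, -2.61 (SE 1.13) in EEP and -3.05 (SE 1.17) in CP, and it did not pass, with edgeR adjusted p-values of 0.889, 0.633 and 0.296. The other tested genes of storage and carotenoid cleavage did not share this pattern: Dgat1, an acyltransferase that can also esterify retinol, was highest in AS 1 (21.1 CPM), and so by mean were AS libraries for Bco1, a carotenoid cleaving enzyme (4.17 ± 2.56 CPM), and CP libraries for its relative Bco2 (6.57 ± 0.921 CPM). Stra6l, a relative of the retinol receptor, had 22, 0 and 39 counts in normal 1, 2 and 3 and 0 in AS. The CP libraries held 0, 7 and 3 counts of it and the EEP libraries 11, 0 and 0. AS was at least 11.0-fold lower than normal tissue, though the groups overlapped through normal 2. Fabp5, Cyp26a1, Lrat and Stra6l thus had normal 1 and normal 3 as their highest libraries, with normal 2 within the range of the injured libraries. The share of all genes with this shape was not counted, so it is not read as a trait of the pathway.

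**Figure D4:**
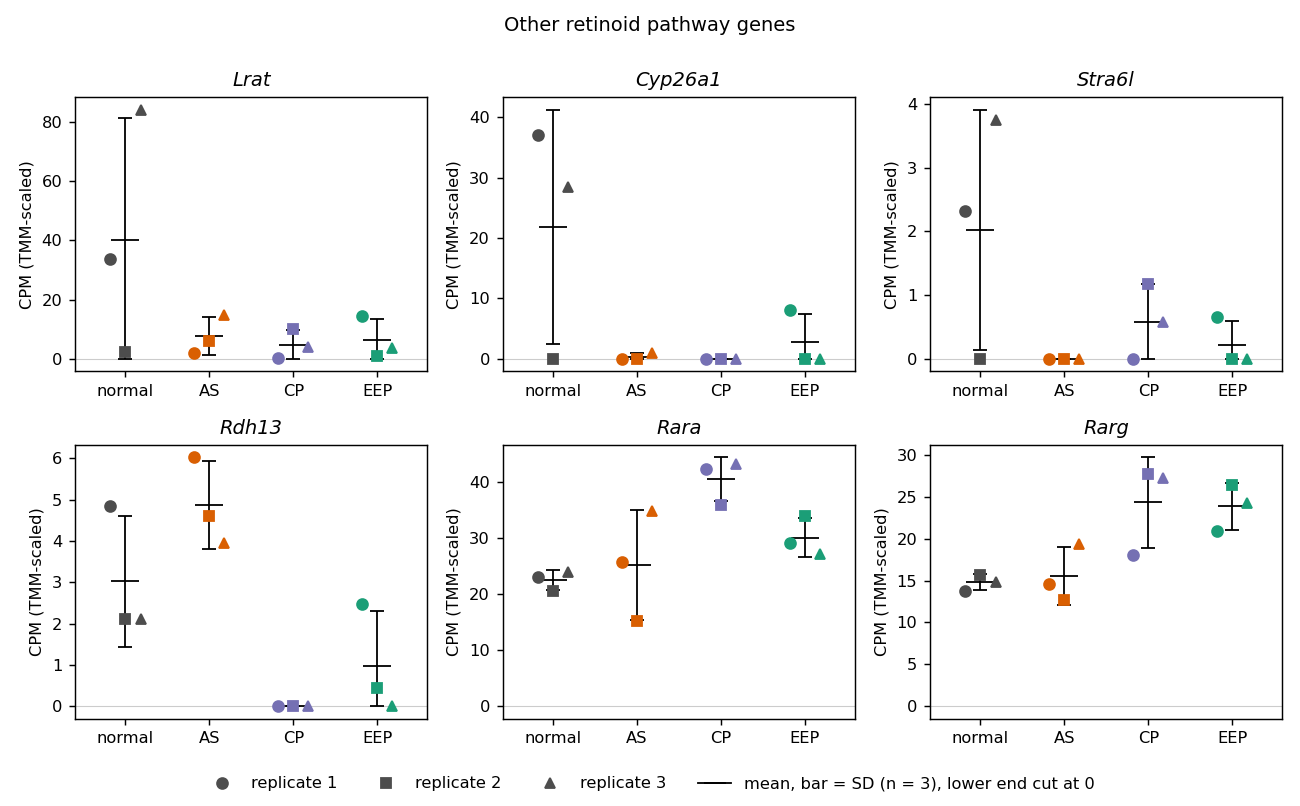
Level of 6 pathway genes outside the members in each library, in TMM-scaled CPM on a linear axis per gene, with the group mean and SD (n = 3) cut at 0. Lrat, Cyp26a1 and Stra6l are high in normal 1 and normal 3 and low in normal 2, Rdh13 is at 0 in all CP libraries, and Rara and Rarg are higher in CP and EEP than in normal tissue.

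Retinol dehydrogenases other than Rdh10 did not share a direction. Rdh13, a mitochondrial short-chain dehydrogenase, was at 4.85, 2.10 and 2.11 CPM in normal, 6.03, 4.60 and 3.95 CPM in AS, 0 in all CP libraries and 2.48, 0.45 and 0 CPM in EEP. CP was at least 24.9-fold lower than AS and at least 15.1-fold lower than normal tissue (edgeR adjusted p = 0.226 and 0.192, DESeq2 adjusted p = 0.0046 and 0.0105). Rdh14, a related dehydrogenase, averaged 0.847 ± 1.47 CPM in EEP and 5.49 ± 0.111 CPM in AS, which did not overlap, and its fold change of -2.48 (log2) did not pass. Dhrs9, an oxidoreductase of retinol, was instead higher in CP (17.96 ± 15.2 CPM) and EEP (11.2 ± 9.03 CPM) than in AS (0.781 ± 1.35 CPM), with overlapping libraries. Adh1, the alcohol dehydrogenase that also oxidises retinol, was at 133 ± 22.0 CPM in AS, 86.3 ± 10.1 in normal, 83.7 ± 68.8 in EEP and 63.9 ± 4.52 CPM in CP.

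The other retinoic acid receptors had higher means in patched than in unpatched tissue, without passing. Rara, retinoic acid receptor alpha, was at 23.1, 20.5 and 23.9 CPM in normal 1, 2 and 3, 25.6, 15.2 and 34.8 CPM in AS, 42.2, 35.9 and 43.2 CPM in CP and 29.1, 33.9 and 27.2 CPM in EEP. All CP libraries stood above all others, and all EEP libraries above all normal ones. The log2 fold change against normal was 0.85 (SE 0.35, edgeR adjusted p = 0.327) in CP and 0.42 in EEP. Rarg, retinoic acid receptor gamma, was at 14.8 ± 0.953 CPM in normal, 15.5 ± 3.46 in AS, 24.3 ± 5.41 in CP and 23.9 ± 2.80 CPM in EEP, with values of 0.72 for CP and 0.69 for EEP against normal and no overlap in either.

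Of the retinoic acid induced genes, 11 of 15 could be tested. Meis2, a homeobox gene, had the smallest unadjusted p of the list in EEP against normal, at 52.7 ± 35.6 CPM against 136 ± 28.9 CPM (log2 fold change -1.38, SE 0.464, edgeR adjusted p = 0.546). The list as a whole did not follow Meis2 there: 7 of the 11 were above 0 and 4 below, with a median log2 fold change of 0.31. Without overlap, Meis2 was lower and Rarres1 higher, at 31.6 ± 16.8 CPM in EEP against 15.2 ± 5.01 CPM in normal. In CP against normal 5 were above 0 and 6 below, with a median of -0.02. On the fatty acid side, only Fabp3 and Fabp4 of 9 other fatty acid binding proteins passed the filter, with means of 0.351 to 2.03 CPM for Fabp3 and 1.41 to 6.86 CPM for Fabp4. Ppard, the nuclear receptor to which FABP5 delivers ligand, was at 6.08 ± 2.53 CPM in normal, 10.97 ± 5.27 in AS, 10.2 ± 2.82 in EEP and 19.8 ± 4.27 CPM in CP. For CP against normal its log2 fold change was 1.70 (SE 0.504, edgeR adjusted p = 0.22), and DESeq2 gave 1.73 with an adjusted p of 0.0442. Cpt1a, which admits fatty acids to mitochondria and is induced by PPARs, was lower in AS (18.1 ± 3.38 CPM) than in normal (29.6 ± 2.95), CP (37.3 ± 10.9) or EEP tissue (27.8 ± 2.62), with no overlap and without passing. Acadvl, of the same list, was lower in CP (5.37 ± 2.29 CPM) than in AS (12.9 ± 5.26) or normal tissue (15.5 ± 2.56), also with no overlap and without passing. Of the 7 tested genes of PPARs and their targets, 2 were above 0 and 5 below in CP against AS. In CP against normal 4 were above 0 and 3 below.

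Likeness across the 12 libraries was measured as Pearson's r of log2(CPM + 1), as a description over libraries that share group, depth and scaling. Fabp5 was most like Slpil2 (0.965), Hgd (0.964) and Kcnj1 (0.964), all of which peaked in normal 1. Crabp1 was most like Pcmt1 (0.962), Rcn3 (0.961) and Mrps30 (0.953), and Crabp2 like Gpd2 (0.937), Hba-a2 (0.855) and Nt5dc1 (0.845). Aldh1a1 was most like Wfdc10a (0.921), Arap2 (0.871) and Eif4ebp2 (0.859), Aldh1a2 like Tmem97 (0.913), Hdhd3 (0.904) and Bag2 (0.896), and Rdh10 like Rnf181 (0.918), Nt5c2 (0.901) and Bpnt1 (0.898). For Stra6 these were Aebp1 (0.959), Tenm3 (0.937) and Eif4enif1 (0.928), and for Rarb Bmp8a (0.899), Serac1 (0.883) and Nrg2 (0.854).

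Between members the highest value was 0.80 for Crabp1 with Aldh1a2, followed by 0.62 for Aldh1a2 with Rarb and 0.53 for Fabp5 with Aldh1a1 and for Crabp1 with Stra6. The lowest were -0.58 for Crabp2 with Stra6 and -0.51 for Rdh10 with Rarb. Between the carriers it was -0.23 for Crabp1 with Crabp2, -0.27 for Fabp5 with Crabp2 and 0.37 for Fabp5 with Crabp1.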

How the data were processed

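The authors deposited whole-number raw counts per gene for 12 libraries in a single table, which gives gene coordinates on mRatBN7.2 per the file's information sheet. Bowtie2 and bedtools are named in the submitters' processing notes, without versions, along with the build mm10, a mouse build although the table carries rat symbols and rat sequence names. Alignment to another build could change which genes gain counts, and reads shared by near-identical genes could be split.

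The deposited counts were TMM-scaled, filtered with filterByExpr (13909 genes kept) and fitted in 1 quasi-likelihood model over 12 libraries with edgeR 4.0.16 (limma 3.58.1, R 4.3.3), with Benjamini-Hochberg adjustment over all genes and a threshold of 0.05. The biological coefficient of variation was 59.2%. The fit was tested on simulated data for AS against normal, with 50 genes changed at each fold. Changes of 2- and 8-fold were simulated as increases only, and those of 4- and 16-fold as decreases only. The fit called 1 of 50 genes raised 2-fold, 5 lowered 4-fold, 34 raised 8-fold and 32 lowered 16-fold. Most of the 2-fold increases and 4-fold decreases thus went uncalled. Size and direction cannot be told apart in these rates. A fold against a group at 0 is a bound from 3 counts over that group, for counting error only. Alternatives were RLE scaling, DESeq2 1.42.0, no filter, at least 5 CPM in 3 libraries, 2 groups alone, the replicate number as a block, mitochondrial genes removed, their share as a covariate, and each replicate left out.

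The members and lists were chosen with earlier results of these data known. Other pathway genes named were up to 2 per list and comparison with the smallest unadjusted p, and for likeness the 3 genes with the highest r per member (pseudocount 1). Promoters came from RefSeq GRCr8, with 7 of 9 members matched. The chromosome of each gene was assigned by symbol.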

Additional observations from a re-analysis of the deposited data

How the results depend on the processing

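Genes called over the whole table were 1 in AS against normal, 2 in EEP against AS, 1 in CP against AS, 0 in EEP against CP, 1 in EEP against normal and 0 in CP against normal. In that order DESeq2 called 32, 126, 119, 1, 65 and 270, and without a low-count filter edgeR called 154, 143, 230, 5, 232 and 445. Fits of 2 groups alone gave 1 in EEP against AS, 3 in EEP against normal and 585 in CP against normal. With the 5 CPM filter, and with mitochondrial genes removed, EEP against normal had 0. With the mitochondrial share as a covariate, CP against AS and EEP against normal had 2 each. With 1 replicate left out the counts ran from 1 to 6 in AS against normal (highest without normal 2), 1 to 19 in EEP against AS (without EEP 1), 1 to 5 in CP against AS (without AS 1), 0 to 0 in EEP against CP, 0 to 200 in EEP against normal (without EEP 1) and 0 to 6 in CP against normal (without normal 2). The cause was not tested.

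With the replicate number as a block, EEP against normal had 4 calls and CP against normal 11, Fabp5 among them (log2 fold change -3.71, adjusted p = 0.0479). Same-numbered libraries of different groups, 18 pairs of libraries, correlated at -0.103 to 0.390 after removal of the group means. The own number was best in 9 of the 18, among them each pair of replicate 1 libraries. AS 1 with EEP 1 was the highest, at 0.390. The labels do not link libraries to animals, so the main fit did not pair by number. Whether the numbers pair the libraries was not settled. Of 652 member fold changes under the alternatives, 631 moved by less than 1 SD and 32 changed sign. The SD is that of the gene's own log2 CPM between libraries, pooled over the groups compared. A gene with a wide spread could therefore shift far and still count as moved by less. No member changed sign under RLE scaling. With mitochondrial genes removed no fitted member changed sign, but Rarb had no value in that setting. Depth limits Rbp4 and Rarb, with 59 and 73 counts in all.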
